A study of Mus musculus with 43 samples.

Results

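The comparison described here is a difference of 2 Runx1 knockout effects on RNA in mouse inguinal white fat (iWAT): the effect in samples labelled HFD minus the effect in samples without a diet label, called unlabelled iWAT below. It used 12 of the 43 libraries of the series, 3 in each of 4 groups, and the 14712 genes of 26264 that were expressed in both count tables. The unlabelled controls are Runx1 flox mice with genotype WT, and their knockouts carry Adipoq-cre, a recombinase made under a promoter active in adipocytes, so that other cells of the tissue keep the gene. The HFD samples are labelled WT and Runx1 knockout. Their labels name no cre and no allele, and HFD is not spelled out in them. No age is given for any of the 4 groups, and the labels do not say whether libraries of a group are separate animals, so p-values measure the spread between these libraries. The HFD label and the count table cannot be told apart, because every HFD library is in 1 table and every unlabelled library in the other.

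RUNX1 is a DNA-binding transcription factor that works as a pair with CBFB and is known above all from blood cell formation. RUNX2 and RUNX3, its close relatives, are known from bone formation and from lymphocytes. Inguinal fat is a depot in which white adipocytes can take on thermogenic, or beige, features, and it also holds blood vessels, stromal cells and immune cells. The series title links loss of RUNX1 or RUNX2 in adipocytes to more beige fat, and the question here is whether the effect of the Runx1 knockout differed between the HFD and the unlabelled tissue.

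Library totals ran from 32.5 to 52.2 M counts. All 25 adipocyte identity genes in the tables, among them Adipoq, Fabp4 and Pparg, had counts in all 12 libraries, with a summed level of 54150 to 93232 CPM (counts scaled to library size, with TMM factors). Skeletal muscle transcripts set 3 unlabelled libraries apart: 20 muscle genes summed to 10660 CPM in control replicate 2, 23849 in knockout replicate 2 and 11701 in knockout replicate 3, against 86.4 to 348 in the other 9 libraries. Results are therefore also given without these 3 libraries, which leaves 2 unlabelled controls and 1 unlabelled knockout. That single knockout library is then assumed to vary like the others. Its muscle sum of 348 CPM was still above the 86.4 and 143 CPM of the 2 controls left. The median log2 effect of the tested muscle genes in unlabelled iWAT was then 1.83, against 1.98 with all libraries. Muscle transcripts thus remained unequal in that fit. Lep, the leptin hormone that adipocytes release, was at 1936 to 6542 CPM in the HFD libraries and at 18.5 to 238 CPM in the unlabelled ones, 2 ranges that did not overlap.

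Of the 14712 genes, 701 (4.76%) were called for the difference of effects, at an adjusted p below 0.05 in edgeR's quasi-likelihood test with Benjamini-Hochberg adjustment. The difference was negative for 510 of them (3.47% of genes), which means that the knockout lowered the gene more, or raised it less, in HFD iWAT than in unlabelled iWAT. It was positive for 191 (1.3%). The calls fell into 3 main blocks. In the first, 274 genes were called lower in the HFD knockout, of which 256 passed no test in unlabelled iWAT, 12 fell there too and 6 rose there. The second block holds 177 genes that rose in the unlabelled knockout and passed no test in HFD iWAT. In the third, 143 genes fell in the unlabelled knockout, again with no call in HFD iWAT. A further 104 genes, 45 positive and 59 negative, were called for the difference alone, and 3 were called both for the difference and as higher in the HFD knockout.

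Across the 14712 genes the 2 effects had a Pearson correlation of 0.02, a description over genes, which are not independent replicates. In HFD iWAT taken alone, 332 genes passed (2.26%), 325 lower (2.21%) and 7 higher (0.0476%), and in unlabelled iWAT 1328 passed (9.03%), 771 higher (5.24%) and 557 lower (3.79%). At an unadjusted p under 0.05 the counts were 1279 in HFD iWAT, 3936 in unlabelled iWAT and 2899 for the difference. The median standard error of a gene's log2 effect was 0.27 in HFD iWAT and 0.19 in unlabelled iWAT, and it was 0.34 for the difference. The median log2 difference over all genes was -0.03. In the block of 177 genes the median log2 effect was 1.06 in unlabelled iWAT and -0.25 in HFD iWAT, where 149 of the 177 estimates lay below 0. In the block of 143 genes the corresponding medians were -1.09 and 0.38, with 133 HFD estimates above 0. These medians describe genes that the difference selected and support nothing by themselves. Without the 3 libraries with muscle transcripts, 107 genes passed for the difference, 7 positive and 100 negative, and 102 of them were among the 701. Of the 50 genes with a called difference that are given with values below, 20 passed in that fit: Cd79a, Ms4a1, Fcer2a, Foxp3, Ltb, Glycam1, Serpina10, Tspan10, Timd4, Irs3, Plin5, G0s2, Cidea, Hsph1, Bhlhe41, Errfi1, Slc25a25, Apold1, Dusp8 and Ugdh. Unlabelled knockout replicate 2 bore most on the count among single libraries: without it 297 genes passed for the difference, and 154 in unlabelled iWAT taken alone.

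**Figure D1:**
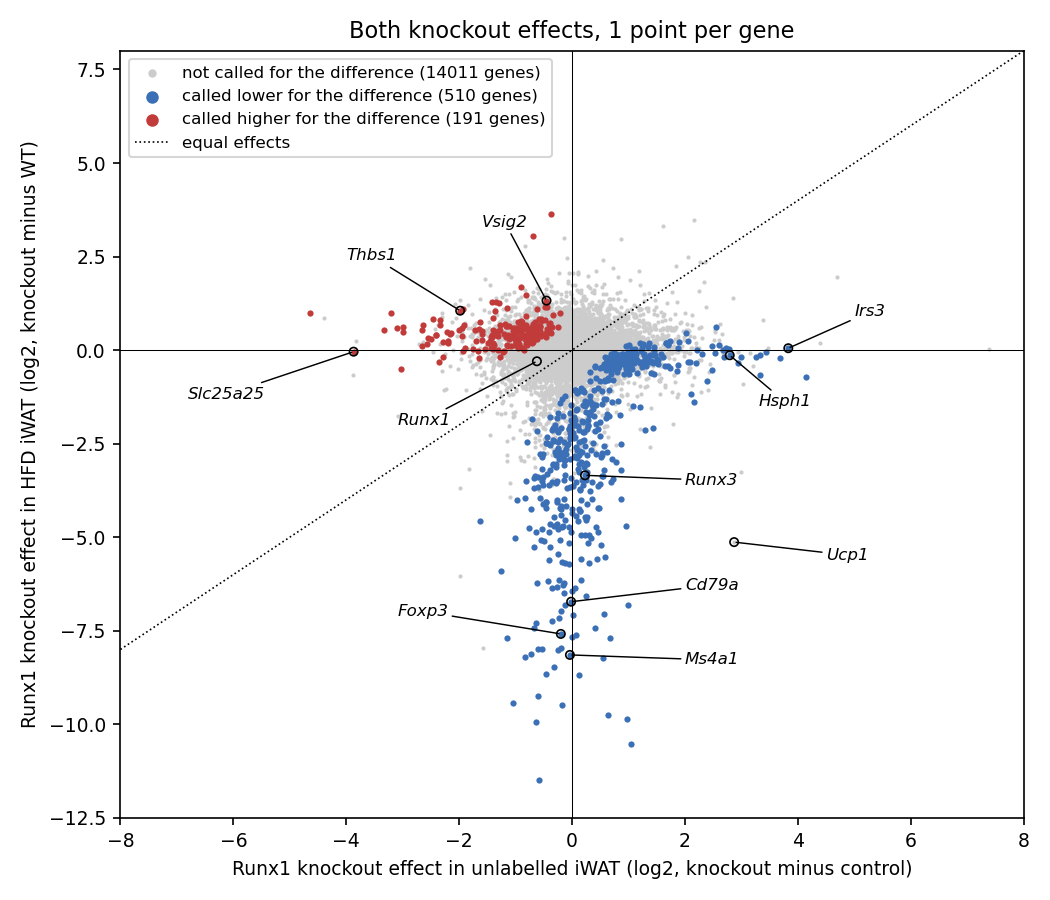
Each point is 1 of 14712 genes, with the log2 knockout effect in unlabelled iWAT on the horizontal axis and in HFD iWAT on the vertical axis; the dotted line marks equal effects, and circled genes are named in the text. Genes called lower for the difference (blue, 510) lie in a downward arm, low in the HFD knockout, and a right arm, high in the unlabelled knockout, and genes called higher (red, 191) lie mostly to the left, low in the unlabelled knockout.

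Runx1 itself was measured over the whole gene in whole tissue. Its level was 9.07, 17.1 and 18.5 CPM in the HFD WT libraries and 13.4, 14.0 and 8.25 CPM in the HFD knockouts. In unlabelled iWAT it was 24.7, 28.3 and 42.1 CPM in the controls and 20.0, 20.2 and 20.9 CPM in the knockouts. The HFD groups overlapped and gave no check of their labels, whereas the unlabelled groups did not overlap (log2 effect -0.62, adjusted p = 0.0683). The log2 difference for Runx1 was 0.31 (SE 0.40, adjusted p = 0.711). Runx2 gave a log2 difference of 1.11 (SE 0.44, adjusted p = 0.17), and Cbfb, the shared partner, was at -0.05 (SE 0.21, adjusted p = 0.934), a value whose sign changed with the scaling. Runx3, the family member known from T cells and natural killer (NK) cells, was the only one of these 4 genes to pass. It stood at 2.41, 14.1 and 10.1 CPM in HFD WT and at 1.07, 0.291 and 1.195 CPM in the HFD knockouts. In the unlabelled tissue it was at 31.0, 21.1 and 31.6 CPM in controls and at 30.5, 33.1 and 33.7 CPM in knockouts. All 3 HFD knockout libraries lay below all 3 HFD WT libraries, and the log2 difference was -3.58 (SE 0.75, adjusted p = 0.0184; 0.0524 without unlabelled knockout replicate 2 and 0.205 without the muscle-carrying libraries). Of 16 RUNX factors and partners, 1 fell in the difference, Runx3, and 1 rose, beside 3.47% lower and 1.3% higher over all genes. The gene that rose was Tle1, a co-repressor that RUNX proteins recruit (log2 difference 1.09, SE 0.25, adjusted p = 0.0222; called in 9 of 12 fits that each left out 1 library).

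The Runx3 promoter window of RefSeq, from 250 bases before to 50 after the first of 2 annotated starts, is shown because it carries the core letters of a RUNX site, TGTGGT or its reverse ACCACA, at 2 places (in capitals). It lies on the plus strand of GRCm38.p6 at chr4:135120395-135120694. That build is not the mm39 build of the counts, so the position serves only to identify the window. The same letters, on either strand, occur in 16.8% of the 32851 promoter windows in the table and in 12.9% of those of tested genes. They also occur at 2 places in the window of the first of 2 Runx1 starts and at 3 places in that of Runx2. Neither of these genes was called for the difference, so the letters do not set Runx3 apart.
Runx3 start 1: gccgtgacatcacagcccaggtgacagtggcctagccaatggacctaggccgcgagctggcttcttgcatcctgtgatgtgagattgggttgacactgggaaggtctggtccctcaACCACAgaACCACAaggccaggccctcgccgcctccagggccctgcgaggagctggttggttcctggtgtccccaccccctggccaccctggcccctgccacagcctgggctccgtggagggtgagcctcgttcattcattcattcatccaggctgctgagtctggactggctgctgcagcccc

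B cell genes and T and NK cell genes were the 2 lists with the most negative median difference. All 13 tested B cell genes were called lower in the HFD knockout and lower for the difference, and none was called in unlabelled iWAT. Over all genes 2.21% were called lower in HFD iWAT and 3.47% for the difference. The labels do not describe how the tissue was sampled. The median log2 effect of the list was -6.35 in HFD iWAT and -0.13 in unlabelled iWAT, and the median log2 difference was -6.42, beside -0.03 for all genes. Without the muscle-carrying libraries 12 of the 13 passed, with a median of -6.45. In bulk tissue, fewer cells of a type and less RNA per cell cannot be told apart. The 13 genes summed to 272, 694 and 541 CPM in HFD WT and to 6.90, 10.8 and 7.86 CPM in the HFD knockouts. In unlabelled iWAT they summed to 2054 to 2639 CPM in controls and 1907 to 2349 CPM in knockouts. The HFD WT libraries thus lay between the HFD knockouts and all unlabelled libraries, and the 2 unlabelled groups overlapped.

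Cd79a encodes a signalling chain of the B cell receptor. Its level was 56.2, 101 and 90.2 CPM in HFD WT, 0.648, 0.729 and 0.926 CPM in HFD knockouts, 366, 361 and 470 CPM in unlabelled controls and 352, 456 and 366 CPM in unlabelled knockouts. The log2 effect was -6.72 in HFD iWAT (SE 0.33, adjusted p = 1.24e-06) and -0.02 in unlabelled iWAT (SE 0.17, adjusted p = 0.959), and the log2 difference was -6.72 (SE 0.36, adjusted p = 1.19e-07). Ms4a1, which encodes the B cell surface protein CD20, fell from 32.5, 61.4 and 44.3 CPM to 0.268, 0.175 and 0 CPM in HFD iWAT. It was at 161, 96.4 and 143 CPM in unlabelled controls and at 142, 133 and 112 CPM in their knockouts. The log2 difference of Ms4a1 was -8.12 (SE 0.58, adjusted p = 5.58e-06). For Fcer2a, the low-affinity IgE receptor CD23 of B cells, the log2 difference was -8.81 (SE 0.74, adjusted p = 3.14e-05), and the HFD knockouts held 8 counts in all against 3304 in HFD WT.

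**Figure D2:**
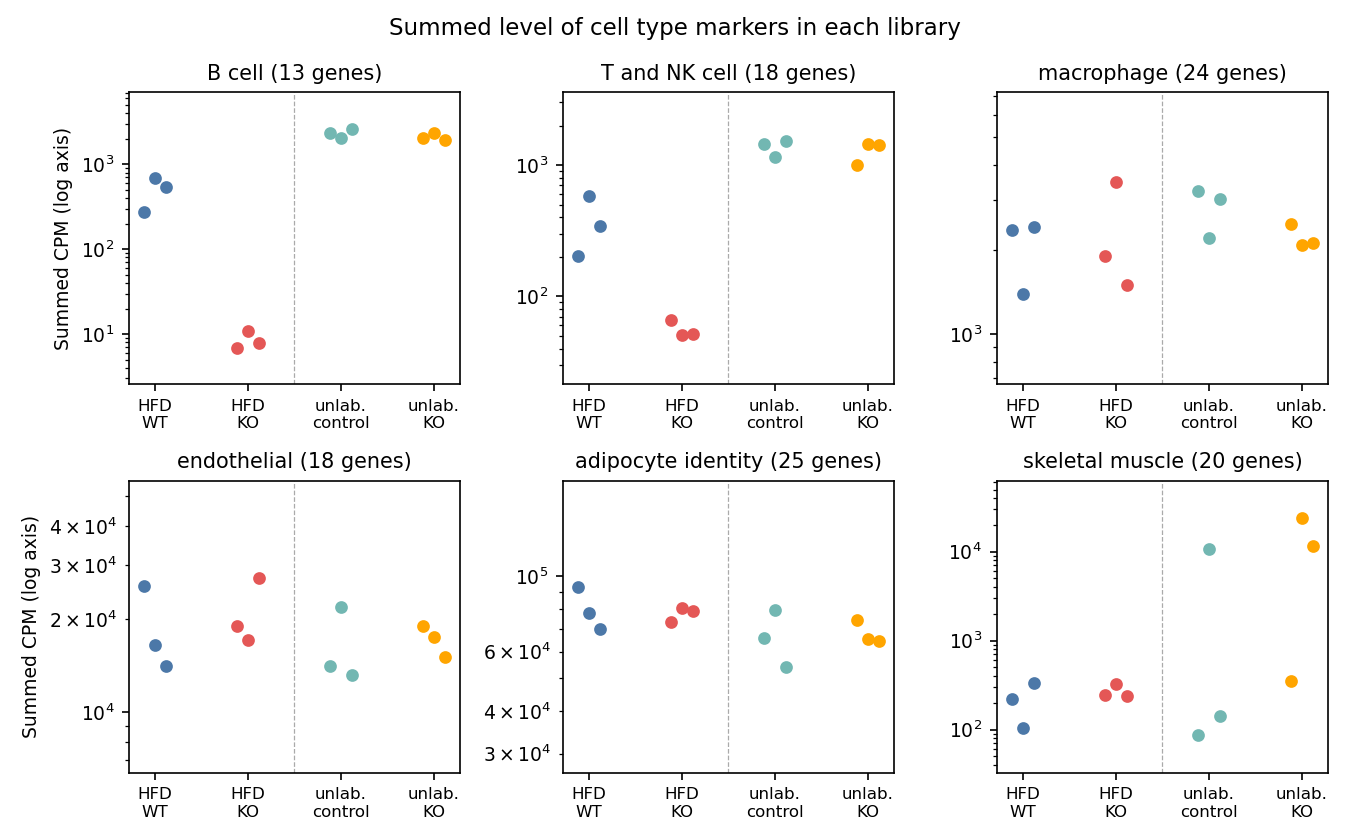
Summed CPM of 6 lists of cell type markers in each library (log axis; 1 point per library, 3 per group; unlab. = unlabelled iWAT). The B cell sum is 6.90 to 10.8 CPM in the HFD knockouts and 272 or more elsewhere, and the skeletal muscle sum is high in 3 unlabelled libraries. The endothelial list includes Fabp4, which is also in the adipocyte identity list, so its panel mostly shows that gene. Fabp4 made up 22450 of 25519 CPM in HFD WT replicate 1 and 18840 of 21968 CPM in unlabelled control replicate 2.

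Of 18 T cell and NK cell genes, 13 were called lower for the difference and none higher, beside 3.47% and 1.3% over all genes. The NK cell genes Klrb1c and Ncr1 were not called, nor were Gzma, Il7r and Cd28, while Nkg7 was. The estimate lay above 0 for 2 of the 18. The median log2 difference of the list was -3.46. In HFD iWAT 13 fell, with a median of -3.32, and in unlabelled iWAT 3 fell, with a median of 0.05. Without the muscle-carrying libraries 1 of the 18 passed, and the median was -3.04. Their sum was 204, 579 and 341 CPM in HFD WT, 65.6, 50.7 and 51.7 CPM in HFD knockouts, and 1007 to 1520 CPM in the 6 unlabelled libraries. Cd4, the co-receptor of helper T cells, was at 12.01, 41.6 and 29.9 CPM in HFD WT and at 2.46, 1.89 and 3.35 CPM in HFD knockouts. In unlabelled iWAT it was at 98.9, 79.6 and 113 CPM in controls and at 89.1, 96.3 and 99.1 CPM in knockouts. The HFD groups of Cd4 did not overlap and the unlabelled ones did, with a log2 difference of -3.40 (SE 0.49, adjusted p = 0.00149). Foxp3, the factor that defines regulatory T cells, was at 0.912, 6.96 and 4.66 CPM in HFD WT, and the 3 HFD knockouts together held 2 counts against 446 in HFD WT. Scaled for library size, HFD WT was 237-fold higher, with a 95% exact binomial interval of 65.3 to 1965 that covers counting error only. The interval takes counts as independent and is too narrow if read pairs were counted by their 2 ends. Foxp3 was at 20.5, 17.3 and 14.2 CPM in unlabelled controls and at 10.8, 16.8 and 17.3 CPM in unlabelled knockouts. The fitted log2 difference, which such low counts leave imprecise, was -7.43 (SE 1.11, adjusted p = 0.00198; -10.2 to -6.79 with 1 library left out). Ccr7, a receptor that guides lymphocytes and dendritic cells to lymph nodes, gave a log2 difference of -4.37 (SE 0.66, adjusted p = 0.00284).

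**Figure D3:**
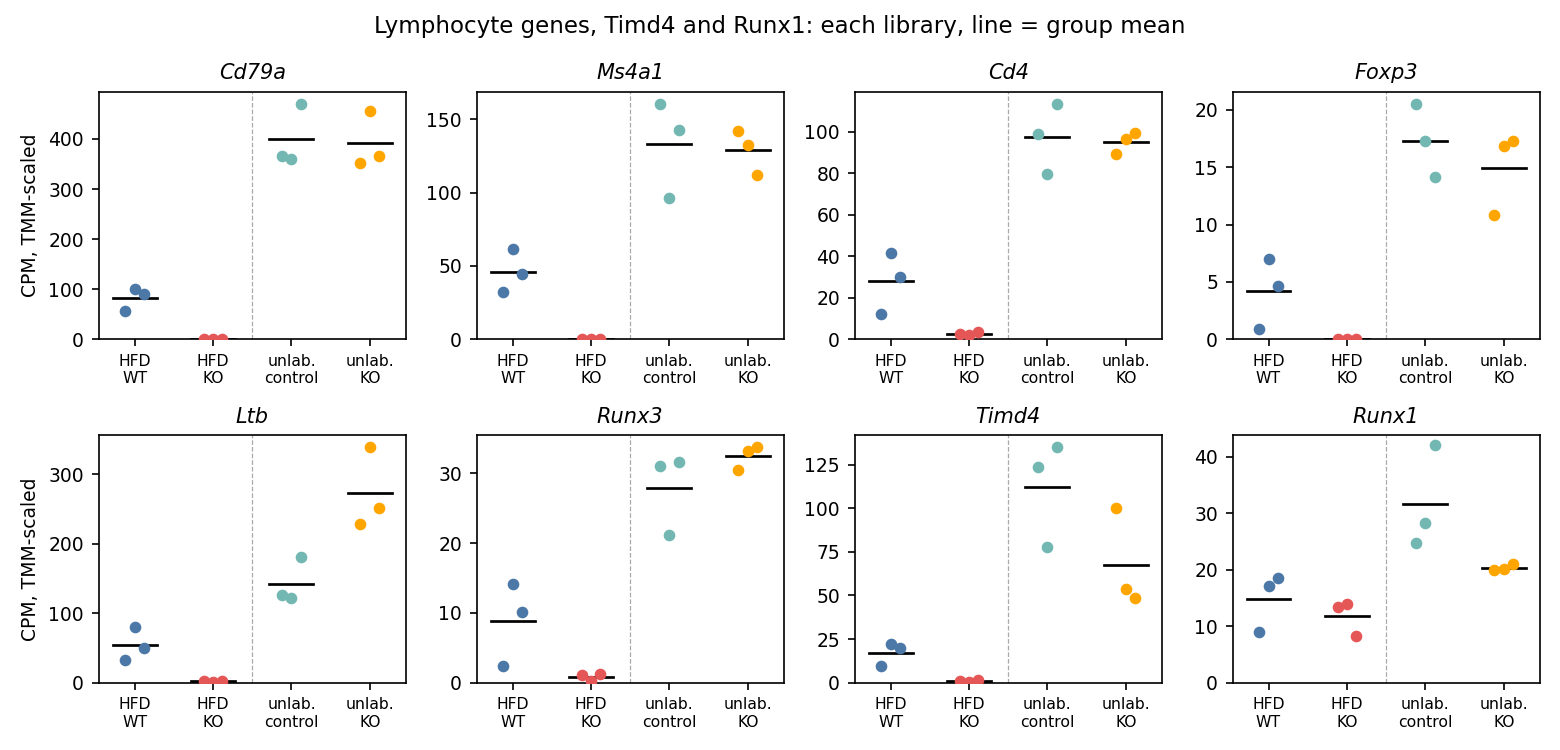
CPM of 8 genes in each library on linear axes from 0 (points; lines are group means of 3 libraries). The 6 lymphocyte genes and Timd4 lie near 0 in the HFD knockouts and overlap between the unlabelled groups except for Ltb, which is higher in the unlabelled knockouts, while Runx1 overlaps between the HFD groups.

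Among the genes with the most negative differences were several with no count in any HFD knockout library. For these a floor of 3 counts over the group gives a bound in place of a fold. The bound sets the HFD WT mean against this floor and leaves out the spread of the WT libraries. The floor takes counts as independent. If read pairs were counted by their 2 ends, the bounds given here overstate the fall. Glycam1, a mucin of the high endothelial venules through which lymphocytes enter lymph nodes, was at 6.30, 13.9 and 9.81 CPM in HFD WT and at 0 in all 3 HFD knockouts, at least 375-fold lower. In the unlabelled tissue it was at 266, 146 and 254 CPM in controls and at 164, 136 and 138 CPM in knockouts, so the log2 difference was -7.96 or lower (adjusted p = 2.73e-05). Serpina10, which encodes an inhibitor of coagulation proteases, was at 2.44, 8.90 and 4.01 CPM in HFD WT and at 0 in the HFD knockouts, at least 192-fold lower. It moved the other way in unlabelled iWAT, from 9.38, 8.01 and 12.4 CPM to 19.5, 21.3 and 20.3 CPM, which puts the log2 difference at -8.63 or lower (adjusted p = 3.15e-05). Tspan10, a tetraspanin membrane protein, was at least 120-fold lower in the HFD knockouts and rose in the unlabelled ones (log2 effect 0.97, adjusted p = 0.0342), a log2 difference of -7.87 or lower (adjusted p = 0.000331). Dsg2, a cell junction cadherin, was at least 127-fold lower in the HFD knockouts, a log2 difference of -6.34 or lower (adjusted p = 0.00447; 0.0564 without the muscle-carrying libraries). HFD WT levels were 0.883, 4.87 and 3.85 CPM for Tspan10 and 0.648, 5.58 and 3.90 CPM for Dsg2. Of the 274 genes called lower in HFD iWAT and for the difference, 21 had no count in the HFD knockouts, and 246 were lower in all 3 HFD WT libraries than in all 3 unlabelled controls. The latter holds for 89.8% of the 274 and for 27.2% of all tested genes.

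Opposite calls were made for 6 genes, which fell in the HFD knockout and rose in the unlabelled one: Cxcr6, Ltb, Pglyrp2, Pim2, Serpina10 and Tspan10. Ltb, the lymphotoxin beta chain that lymphocytes use to organise lymphoid tissue, was at 33.0, 80.6 and 49.7 CPM in HFD WT and at 2.06, 0.903 and 3.26 CPM in HFD knockouts. In unlabelled iWAT it was at 126, 122 and 181 CPM in controls and at 229, 339 and 251 CPM in knockouts. Neither pair of groups overlapped. The log2 effects of Ltb were -4.69 (SE 0.47, adjusted p = 0.000254) and 0.95 (SE 0.20, adjusted p = 0.0194), and the log2 difference was -5.65 (SE 0.57, adjusted p = 0.00012). Cxcr6, a chemokine receptor of T and NK cells, fell by 2.51 on the log2 scale in HFD iWAT (adjusted p = 0.0466) and rose by 0.87 in unlabelled iWAT (adjusted p = 0.0159). Its log2 difference was -3.39 (SE 0.65, adjusted p = 0.00948).

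Another 22 genes fell in both tables, and 12 of them fell further in HFD iWAT by the test of the difference. Btla, an inhibitory receptor of B and T cells, is an example. It went from 18.1, 55.8 and 41.4 CPM to 1.32, 0.991 and 2.45 CPM in HFD iWAT, and from 432, 381 and 489 CPM to 138, 144 and 132 CPM in unlabelled iWAT. The log2 effects were -4.58 (SE 0.47, adjusted p = 0.00032) and -1.64 (SE 0.15, adjusted p = 0.000527), with a log2 difference of -2.95 (SE 0.50, adjusted p = 0.00452).

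Macrophage genes as a list did not follow the lymphocyte genes. Of 23 tested, 1 was called higher and 2 lower for the difference, beside 1.3% and 3.47% over all genes, with a median of 0.67. Their sum was 1393 to 2415 CPM in HFD WT and 1498 to 3461 CPM in HFD knockouts, ranges that overlapped. Timd4, a phosphatidylserine receptor of tissue-resident macrophages, was at 9.33, 22.01 and 19.8 CPM in HFD WT and at 0.804, 0.408 and 1.43 CPM in the knockouts. It was at 124, 77.8 and 135 CPM in unlabelled controls and 100, 53.8 and 48.5 CPM in their knockouts, and the log2 difference was -3.54 (SE 0.61, adjusted p = 0.00586). Mertk, a receptor with which macrophages take up dying cells, was called the other way (log2 difference 0.99, SE 0.27, adjusted p = 0.0469), with a fall in unlabelled iWAT (log2 effect -0.66, adjusted p = 0.0438), but it was called in only 2 of the 12 leave-one-out fits. The third called gene was Marco, a scavenger receptor.

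Genes of adipocyte metabolism were among those that rose in the unlabelled knockout without a call in HFD iWAT. The counts for the unlabelled table, here and for the lists below, are read beside 5.24% higher and 3.79% lower over all genes. In unlabelled iWAT 22 of 68 respiratory chain genes rose, as did 9 of 22 lipogenesis genes, 7 of 25 fatty acid oxidation genes and 6 of 23 TCA cycle genes, and none of these lists had a call in HFD iWAT. Few of them passed for the difference itself: 2 of the respiratory chain, 2 of lipogenesis, 2 of fatty acid oxidation and none of the TCA cycle, all negative, beside 3.47% called lower over all genes. The estimate of the difference lay below 0 for all 68 respiratory chain genes and all 23 TCA cycle genes, with medians of -0.65 and -0.80, while 47.6% of all tested genes lay above 0. Skeletal muscle transcripts were high in 2 of the 3 unlabelled knockouts and 1 of the 3 controls, as given above. Without these libraries none of the 4 lists had a call for the difference, and 4 respiratory chain, 5 lipogenesis, 3 fatty acid oxidation and 0 TCA cycle genes rose in unlabelled iWAT. The median differences were then -0.70 for the respiratory chain, -0.93 for the TCA cycle, -0.82 for fatty acid oxidation and -0.70 for lipogenesis.

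Single genes of this group changed far more than the list medians. Irs3, an insulin receptor substrate made mainly in rodent adipocytes, was at 34.4, 70.9 and 56.9 CPM in HFD WT and at 54.5, 64.9 and 45.5 CPM in HFD knockouts. In the unlabelled tissue it was at 1.82, 2.30 and 1.80 CPM in controls and at 37.7, 30.1 and 15.7 CPM in knockouts. The unlabelled controls lay far below all other libraries. The log2 effect was 0.05 in HFD iWAT (SE 0.27) and 3.83 in unlabelled iWAT (SE 0.32, adjusted p = 0.000527), and the log2 difference was -3.79 (SE 0.44, adjusted p = 0.000233; 0.000777 without the muscle-carrying libraries). Plin5, a lipid droplet protein that ties droplets to mitochondria, rose in unlabelled iWAT from 6.51, 9.08 and 7.12 CPM to 38.9, 27.9 and 30.6 CPM. In HFD iWAT it was at 56.0, 57.7 and 32.5 CPM in WT and at 22.05, 27.5 and 14.2 CPM in knockouts, groups that did not overlap (log2 effect -1.17, adjusted p = 0.0687). The log2 difference of Plin5 was -3.30 (SE 0.38, adjusted p = 0.000198). Irs3, Plin5 and Ugdh, named further on, were picked after their values were seen, for their low p in the unlabelled table.

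G0s2, an inhibitor of the triglyceride lipase ATGL, rose in unlabelled iWAT from 85.0, 44.5 and 44.0 CPM to 516, 372 and 294 CPM. It was at 87.6, 145 and 65.4 CPM in HFD WT and at 87.5, 79.9 and 128 CPM in HFD knockouts, with a log2 difference of -2.78 (SE 0.48, adjusted p = 0.00455). Slc2a4 encodes the insulin-responsive glucose transporter GLUT4. It rose in unlabelled iWAT from 74.9, 136 and 115 CPM to 216, 207 and 205 CPM, and its log2 difference was -1.48 (SE 0.32, adjusted p = 0.0171). These were the 2 of 25 adipocyte identity genes that passed, beside 3.47% called lower over all genes. Slc2a4 lost its call without HFD WT replicate 2 or unlabelled knockout replicate 2 (adjusted p up to 0.0583). Pparg, the main regulator of adipocyte differentiation, had a log2 difference of -0.27 (SE 0.35), Adipoq, the adiponectin hormone, -0.19 (SE 0.37), Plin1, the main lipid droplet coat protein, -0.65 (SE 0.36) and Lep -1.48 (SE 0.77), none of which passed. The fatty acid binding protein gene Fabp4 was at -0.01 (SE 0.43), a value whose sign changed with the scaling. Further calls went to Gpam, which starts glycerolipid synthesis (log2 difference -1.42, SE 0.32, adjusted p = 0.019), Slc25a20, which carries acylcarnitines into mitochondria (-1.31, SE 0.32, adjusted p = 0.0278), and Ndufb6, a subunit of respiratory complex I (-1.36, SE 0.31, adjusted p = 0.0221). With 1 library left out, Gpam was called in 8 of 12 fits, and Slc25a20 and Ndufb6 in 5 of 12 each.

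Thermogenic genes had a median log2 difference of -1.55 over 22 genes. Of the 22, 18 lay below 0, while 47.6% of all tested genes lay above 0. Of these 22 genes 3 passed, all negative, beside 3.47% called lower over all genes: Cidea, Ppara and Gk. In unlabelled iWAT 7 of the 22 rose and 1 fell, and in HFD iWAT none was called, with medians of 0.86 and -0.21. Without the muscle-carrying libraries 2 passed for the difference, its median was -1.63, and 10 rose and 2 fell in unlabelled iWAT. Ucp1, the uncoupling protein that defines thermogenic fat, was at 9.01, 21.4 and 15.3 CPM in unlabelled controls and at 158, 57.1 and 116 CPM in their knockouts (log2 effect 2.87, SE 0.52, adjusted p = 0.0365). In HFD iWAT it was at 0.471, 80.7 and 1.84 CPM in WT and at 0.357, 1.22 and 0.777 CPM in knockouts. A single HFD WT library, replicate 2, therefore set the HFD mean, and the log2 difference of -8.01 (SE 2.31) did not pass (adjusted p = 0.0958). Without that library the log2 difference of Ucp1 was -3.40 (adjusted p = 0.0751). The DESeq2 test did call it (adjusted p = 0.000956), as did the edgeR test without HFD WT replicate 1 (adjusted p = 0.0364).

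Cidea, which enlarges lipid droplets in brown and beige fat, was at 28.9, 91.4 and 30.8 CPM in HFD WT and at 14.8, 24.9 and 16.5 CPM in HFD knockouts. In unlabelled iWAT it was at 8.34, 30.6 and 14.1 CPM in controls and at 89.8, 65.4 and 79.6 CPM in knockouts. Every HFD knockout library lay below the HFD WT libraries and every unlabelled knockout above its controls, although neither single effect passed (adjusted p = 0.165 and 0.0599). The log2 difference was -3.57 (SE 0.73, adjusted p = 0.0195). It was -2.77 without HFD WT replicate 2 (adjusted p = 0.0178), and it lost the call without HFD knockout replicate 1, HFD knockout replicate 3 or unlabelled control replicate 3 (adjusted p = 0.0524 to 0.0585). Ppara, a nuclear receptor that drives fatty acid oxidation genes, had a log2 difference of -1.76 (SE 0.40, adjusted p = 0.0198), and lost its call without HFD WT replicate 2 or unlabelled knockout replicate 1 (adjusted p up to 0.0638). Elovl3, a fatty acid elongase of cold-activated fat, rose in unlabelled iWAT (log2 effect 3.21, adjusted p = 0.0284), with a difference of -3.64 (SE 1.22, adjusted p = 0.111). Ppargc1a, the coactivator of mitochondrial genes, went the other way: it fell from 112, 99.3 and 90.0 CPM to 21.1, 12.1 and 36.3 CPM in unlabelled iWAT (adjusted p = 0.031) and was at 2.65 to 9.96 CPM in all HFD libraries. Its log2 difference was 2.10 (SE 0.63, adjusted p = 0.0825). Dio2, the enzyme that activates thyroid hormone, Cox8b, a respiratory subunit of thermogenic fat, and Prdm16, a regulator of beige identity, did not pass, with log2 differences of -1.54 (SE 0.78), -2.17 (SE 0.66) and -0.22 (SE 0.35). The DESeq2 test called the difference of Cox8b (adjusted p = 0.00861), Elovl3 (0.0151) and Ppargc1a (0.00433), but not of Dio2 or Prdm16.

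**Figure D4:**
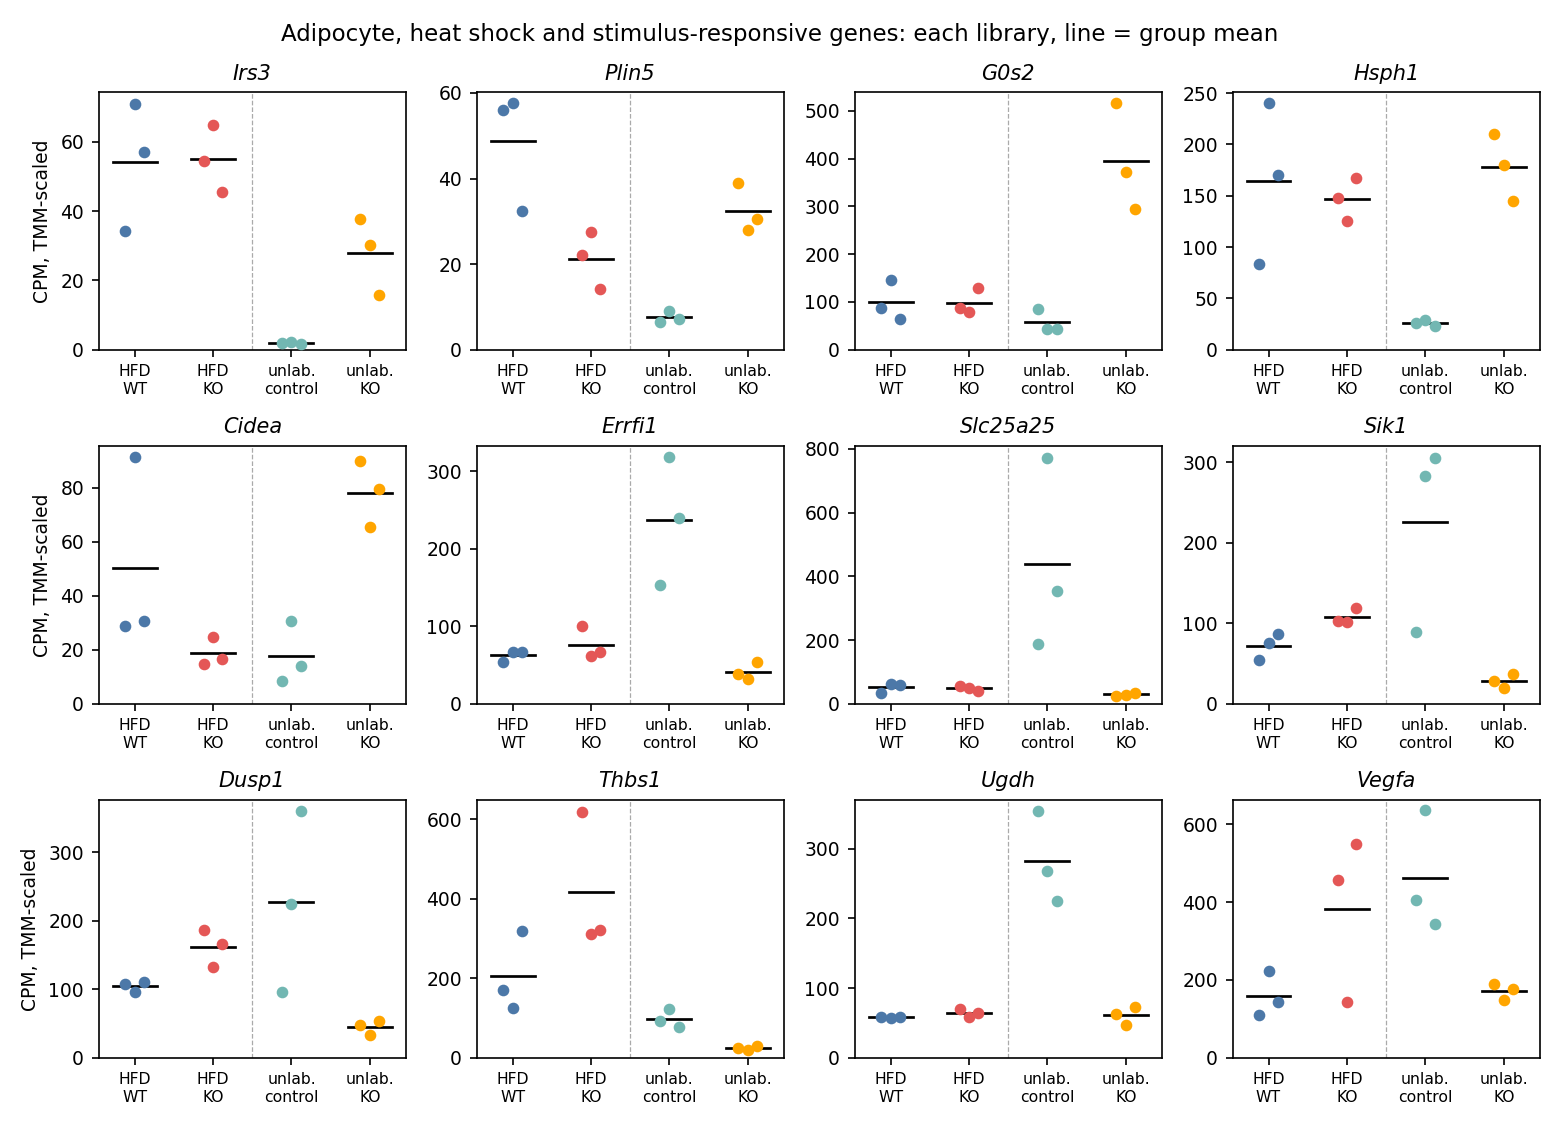
CPM of 12 genes in each library on linear axes from 0 (points; lines are group means of 3 libraries). In Irs3, G0s2 and Hsph1 the unlabelled knockouts lie above their controls, in Errfi1, Slc25a25, Thbs1 and Ugdh below them, and the HFD groups overlap in each of these genes except Ugdh, whose HFD WT libraries all lie below the HFD knockouts.

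Heat shock genes rose in the unlabelled knockout. Of 16 chaperones and co-chaperones 10 were called higher there and none in HFD iWAT. For the difference 6 were called lower, beside 3.47% of all genes: Hsph1, Dnaja1, Hspa1a, Hspa4l, Hspa1b and Hspa8. The median log2 effect was 0.84 in unlabelled and -0.15 in HFD iWAT, and the median difference was -1.03. Hsph1, a large chaperone that helps release substrates from HSP70, was at 25.9, 29.0 and 23.1 CPM in unlabelled controls and at 210, 180 and 145 CPM in their knockouts. It was at 83.7, 240 and 170 CPM in HFD WT and at 148, 126 and 167 CPM in HFD knockouts. The unlabelled controls lay below all other libraries. The log2 effect of Hsph1 in unlabelled iWAT was 2.79 (SE 0.16, adjusted p = 4.33e-05) and the log2 difference -2.94 (SE 0.41, adjusted p = 0.00098; 0.0178 without the muscle-carrying libraries). Dnaja1, a DNAJ co-chaperone, had a log2 difference of -1.58 (SE 0.30, adjusted p = 0.00753). Hspa1a, the heat-inducible HSP70, was at 3.13, 4.14 and 2.65 CPM in unlabelled controls and at 42.4, 29.6 and 26.8 CPM in knockouts, with a log2 difference of -3.48 (SE 0.76, adjusted p = 0.0229; called in 8 of 12 leave-one-out fits). Hspa1a and Hspa1b are near-identical copies, so the counting may have split reads between them. Without the muscle-carrying libraries 1 of the 16 genes passed for the difference, the median was -1.18, and 8 of 16 rose in unlabelled iWAT.

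The opposite pattern, a fall in the unlabelled knockout without a call in HFD iWAT, included genes known to respond quickly to hormones, stress or growth factors. Over all genes 1.3% were called higher for the difference. In the list of glucocorticoid and FOXO responses, 6 of 19 genes were called higher for the difference and none lower: Errfi1, Per1, Sgk1, Depp1, Angptl4 and Irs2. In unlabelled iWAT 9 of the 19 fell and in HFD iWAT none was called. The median log2 effects were -1.14 and 0.11, and the median difference was 1.12, or 1.17 without the muscle-carrying libraries, where 1 gene passed. Of 19 immediate early genes, 5 were called higher for the difference, again beside 1.3% of all genes: Dusp1, Fosl2, Klf4, Atf3 and Jun. In unlabelled iWAT 4 of these 19 fell, the median log2 effects were -1.14 in unlabelled and 0.19 in HFD iWAT, and the median difference was 1.25. Without the muscle-carrying libraries none of the 19 passed, and the median was 0.76.

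Errfi1, a feedback inhibitor of the EGF receptor, was at 153, 318 and 240 CPM in unlabelled controls and at 38.6, 31.97 and 53.4 CPM in their knockouts. It was at 54.3, 67.1 and 67.5 CPM in HFD WT and at 100, 61.3 and 66.7 CPM in HFD knockouts. The log2 difference was 2.79 (SE 0.38, adjusted p = 0.000818; 0.0175 without the muscle-carrying libraries). Slc25a25, a mitochondrial ATP-magnesium carrier, was at 189, 772 and 355 CPM in unlabelled controls and at 25.9, 27.9 and 35.0 CPM in their knockouts, and at 34.2 to 61.4 CPM in the 6 HFD libraries. Its highest value was in control replicate 2, the control with muscle transcripts. The log2 difference was 3.82 (SE 0.57, adjusted p = 0.00224), and 3.38 without the muscle-carrying libraries (adjusted p = 0.0136). Sik1, a salt-inducible kinase that cAMP switches on, was at 89.2, 283 and 306 CPM in unlabelled controls and at 27.9, 19.9 and 36.8 CPM in knockouts. In HFD iWAT it was at 54.1, 74.9 and 86.8 CPM in WT and at 102, 102 and 119 CPM in knockouts, groups that did not overlap (adjusted p = 0.316). The log2 difference of Sik1 was 3.58 (SE 0.53, adjusted p = 0.00195).

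Dusp1, a phosphatase that switches off MAP kinases, was at 107, 96.0 and 110 CPM in HFD WT and at 187, 133 and 166 CPM in HFD knockouts. It was at 96.7, 225 and 360 CPM in unlabelled controls and at 47.9, 33.2 and 53.0 CPM in their knockouts. The knockouts were thus above their WT in 1 table and below their controls in the other, neither effect passed alone (adjusted p = 0.184 and 0.0616), and the log2 difference was 2.98 (SE 0.49, adjusted p = 0.00394). Dusp8, a related phosphatase, had a log2 difference of 3.20 (SE 0.48, adjusted p = 0.00167), and Apold1, an early response gene of endothelial cells, had 3.87 (SE 0.57, adjusted p = 0.00198). Of the other hormone and clock genes, Per1, a repressor of the clock, had a log2 difference of 1.58 (SE 0.30, adjusted p = 0.00724), and Sgk1, a kinase induced by glucocorticoids, 1.51 (SE 0.33, adjusted p = 0.0176; up to 0.0514 with a library left out). Irs2, an insulin receptor substrate, stood at 123, 258 and 157 CPM in unlabelled controls and at 40.0, 32.5 and 43.8 CPM in knockouts, opposite to Irs3. Its log2 difference was 2.43 (SE 0.59, adjusted p = 0.0358), and the call was lost when any of 7 libraries was left out. Of 19 circadian clock genes, Per1 alone was called higher for the difference, and 3 were called lower, Bhlhe41, Dbp and Bhlhe40. Over all genes 1.3% were called higher and 3.47% lower, and the list median was -0.10. Bhlhe41, a clock repressor, had a log2 difference of -2.42 (SE 0.47, adjusted p = 0.0097).

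Promoter windows of these genes were searched for 3 sets of letters on both strands. The full cAMP response element, TGACGTCA, which reads the same on both strands, was found in 5.81% of the 172 windows (10 of 121 matched genes) of the block that fell in the unlabelled knockout only. It was found in 2.82% of the windows of all tested genes, in 1.79% of all windows in the table and in 1.73% of the windows of the 177-gene block that rose there. The 10 genes were Baz2b, Ccnl1, Dusp8, Ell2, Epha2, Errfi1, Hic2, Plk2, Slc25a25 and Wsb1. These shares describe letters and are given without a test. Sik1, which is in that block, is not among the 10. Shown here with the element in capitals are the windows of 3 of the 10 genes with values above, and that of Dusp1. Dusp1 lies outside the block, as its fall in unlabelled iWAT was not called, and it does not enter the shares of the block. The windows come from RefSeq on GRCm38.p6: Dusp8 at chr7:142095235-142095534 on the minus strand, the second of 2 Errfi1 starts at chr4:150854820-150855119 on the plus strand, the third of 3 Slc25a25 starts at chr2:32424017-32424316 on the minus strand, and Dusp1 at chr17:26508423-26508722 on the minus strand.
Dusp8: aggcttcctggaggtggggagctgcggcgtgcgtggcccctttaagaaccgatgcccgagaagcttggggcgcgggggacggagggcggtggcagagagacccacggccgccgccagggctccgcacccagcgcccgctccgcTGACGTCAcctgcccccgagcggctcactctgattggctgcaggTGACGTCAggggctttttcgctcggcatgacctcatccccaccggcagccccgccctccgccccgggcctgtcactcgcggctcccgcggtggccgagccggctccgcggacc
Errfi1 start 2: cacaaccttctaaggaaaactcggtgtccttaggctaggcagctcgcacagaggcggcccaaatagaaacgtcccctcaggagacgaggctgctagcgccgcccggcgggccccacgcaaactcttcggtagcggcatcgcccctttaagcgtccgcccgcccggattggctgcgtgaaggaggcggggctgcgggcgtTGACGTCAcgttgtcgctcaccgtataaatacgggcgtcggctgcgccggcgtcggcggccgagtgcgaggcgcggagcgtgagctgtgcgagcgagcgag
Slc25a25 start 3: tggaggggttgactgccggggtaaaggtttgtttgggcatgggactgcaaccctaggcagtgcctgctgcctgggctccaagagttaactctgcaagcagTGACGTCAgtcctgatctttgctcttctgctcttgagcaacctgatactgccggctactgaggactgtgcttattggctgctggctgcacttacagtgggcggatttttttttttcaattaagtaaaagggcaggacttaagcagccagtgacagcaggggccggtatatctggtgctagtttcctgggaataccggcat
Dusp1: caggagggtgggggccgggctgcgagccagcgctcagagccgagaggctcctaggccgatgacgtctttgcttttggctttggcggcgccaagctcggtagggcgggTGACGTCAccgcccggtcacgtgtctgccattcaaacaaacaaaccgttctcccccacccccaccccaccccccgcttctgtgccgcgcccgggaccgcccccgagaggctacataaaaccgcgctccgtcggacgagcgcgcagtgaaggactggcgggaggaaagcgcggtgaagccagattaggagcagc

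The heat shock element was searched as GAANNTTCNNGAA and its reverse TTCNNGAANNTTC, which occur in 0.603% of all windows and in 0.482% of those of tested genes. Of the 5 called heat shock genes with a window, Hsph1 alone holds it, near the window's end, and of the other list members Chordc1, Hspd1 and Hspe1 do. Windows were found for 12 of the 16 genes of this list, too few for a share. The window of the first of 2 Hsph1 starts lies on the minus strand at chr5:149636287-149636586, with the element in capitals. The letters TGTGGT occur in 8.14% of the windows of the 143-gene block and in 15.0% of those of the 177-gene block, against 12.9% for tested genes. For the block of 274 genes that fell in the HFD knockout, 21.9% of 269 windows hold these letters and 0.743% the cAMP element. Windows were found for only 75.2% of these 274 genes, and for 79.0% of all tested genes. The shares were not tested and describe only the windows searched.
Hsph1 start 1: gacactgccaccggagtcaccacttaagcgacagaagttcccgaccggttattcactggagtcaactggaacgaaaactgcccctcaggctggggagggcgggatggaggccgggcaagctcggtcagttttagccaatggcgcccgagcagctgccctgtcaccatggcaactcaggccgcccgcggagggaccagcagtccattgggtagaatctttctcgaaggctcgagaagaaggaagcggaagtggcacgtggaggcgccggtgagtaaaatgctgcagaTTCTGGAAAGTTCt

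Some matrix, growth factor and vessel genes were also called for the difference. Of 36 extracellular matrix genes, 35 had a difference above 0, beside 47.6% of all tested genes. Those that passed were 3, Thbs1, Ccn1 and Thbs2, all higher, beside 1.3% called higher over all genes. In unlabelled iWAT 6 of the 36 fell and in HFD iWAT none was called, with medians of -0.49 and 0.04. Without the muscle-carrying libraries none of the 36 passed for the difference and 1 fell in unlabelled iWAT. Thbs1, a secreted thrombospondin that can activate latent TGF-beta, was at 171, 125 and 318 CPM in HFD WT and at 618, 311 and 322 CPM in HFD knockouts. In the unlabelled tissue it was at 92.1, 121 and 77.0 CPM in controls and at 23.6, 20.1 and 29.1 CPM in knockouts. Only the unlabelled groups were separate, and the log2 difference was 3.02 (SE 0.49, adjusted p = 0.00307; 0.0975 without the muscle-carrying libraries). Ccn1, a matricellular protein and target of YAP signalling, was at 254, 209 and 286 CPM in HFD WT and at 416, 336 and 424 CPM in HFD knockouts. It was at 56.4, 231 and 193 CPM in unlabelled controls and at 26.6, 18.8 and 30.9 CPM in their knockouts, so that neither pair overlapped and the directions were opposite. Neither effect passed alone (adjusted p = 0.242 and 0.0692), and the log2 difference of Ccn1 was 3.31 (SE 0.54, adjusted p = 0.00405).

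For this list and the endothelial list below, 1.3% of all genes were called higher for the difference and 3.47% lower. In the TGF-beta pathway 2 of 22 genes were called higher, Inhbb and Smad6, with a median of 0.37, and 7 fell and 1 rose in unlabelled iWAT. No gene of the TGF-beta list or of the endothelial list passed for the difference without the muscle-carrying libraries. In unlabelled iWAT 2 TGF-beta genes then fell and 1 rose, and the endothelial median went from -0.38 to -0.10. Inhbb, the activin B subunit that adipocytes make, had a log2 difference of 1.94 (SE 0.40, adjusted p = 0.0133). Of 18 endothelial genes, Kdr, the main VEGF receptor (1.29, SE 0.31, adjusted p = 0.0275), and Cldn5, a tight junction protein (1.76, SE 0.43, adjusted p = 0.0291), were called higher. Prox1, the regulator of lymphatic endothelium, was called lower, with 10 counts over the HFD knockouts against 138 over HFD WT (log2 difference -3.90, SE 0.98, adjusted p = 0.0334). With 1 library left out, Kdr was called in 8 of 12 fits, Cldn5 in 5 and Prox1 in 3. Vegfa, the ligand of KDR, was at 111, 222 and 144 CPM in HFD WT and at 457, 142 and 549 CPM in HFD knockouts, and at 407, 636 and 344 CPM in unlabelled controls and 189, 148 and 176 CPM in their knockouts. The unlabelled groups were separate and the HFD groups overlapped through knockout replicate 2. The log2 difference of Vegfa was 2.70 (SE 0.58, adjusted p = 0.0197), and lost its call without HFD knockout replicate 1 or unlabelled knockout replicate 2 (adjusted p up to 0.0591). Ugdh, which makes the UDP-glucuronate used for hyaluronan and proteoglycans, fell in unlabelled iWAT from 355, 268 and 225 CPM to 63.5, 47.5 and 72.7 CPM and was at 57.7 to 69.9 CPM in the HFD libraries. Its log2 difference was 2.36 (SE 0.27, adjusted p = 0.000198; 0.0102 without the muscle-carrying libraries).

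Only 7 genes rose in the HFD knockout, and 3 of them also passed for the difference. The count of 7 depended on the fit: 52 genes rose by the DESeq2 test, 21 in the fit of 12 libraries, and 14 each with voom and with no count filter. With 1 library left out it ran from 1 (without HFD WT replicate 2) to 23 (without HFD knockout replicate 2). These 3 were picked after their values were seen. Vsig2, a membrane protein of the immunoglobulin superfamily, was at 8.92, 9.42 and 10.8 CPM in HFD WT and at 21.8, 21.4 and 28.3 CPM in HFD knockouts. It was at 4.56 to 9.66 CPM in unlabelled controls and at 4.22 to 6.07 CPM in their knockouts, which overlapped. The log2 difference of Vsig2 was 1.76 (SE 0.38, adjusted p = 0.0153), and it passed in all 12 leave-one-out fits. Plod2, an enzyme of collagen crosslinking, rose from 19.045, 14.9 and 20.7 CPM to 55.3, 30.05 and 34.6 CPM in HFD iWAT, with a log2 difference of 1.64 (SE 0.37, adjusted p = 0.0199; up to 0.0587 with a library left out). The predicted gene Gm16016 gave 3.99 (SE 0.85, adjusted p = 0.0154), from 16 counts over HFD WT and 199 over the HFD knockouts, of which replicate 3 held 139. Without that library the log2 difference of Gm16016 was 2.73 (adjusted p = 0.0142).

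**Figure D5:**
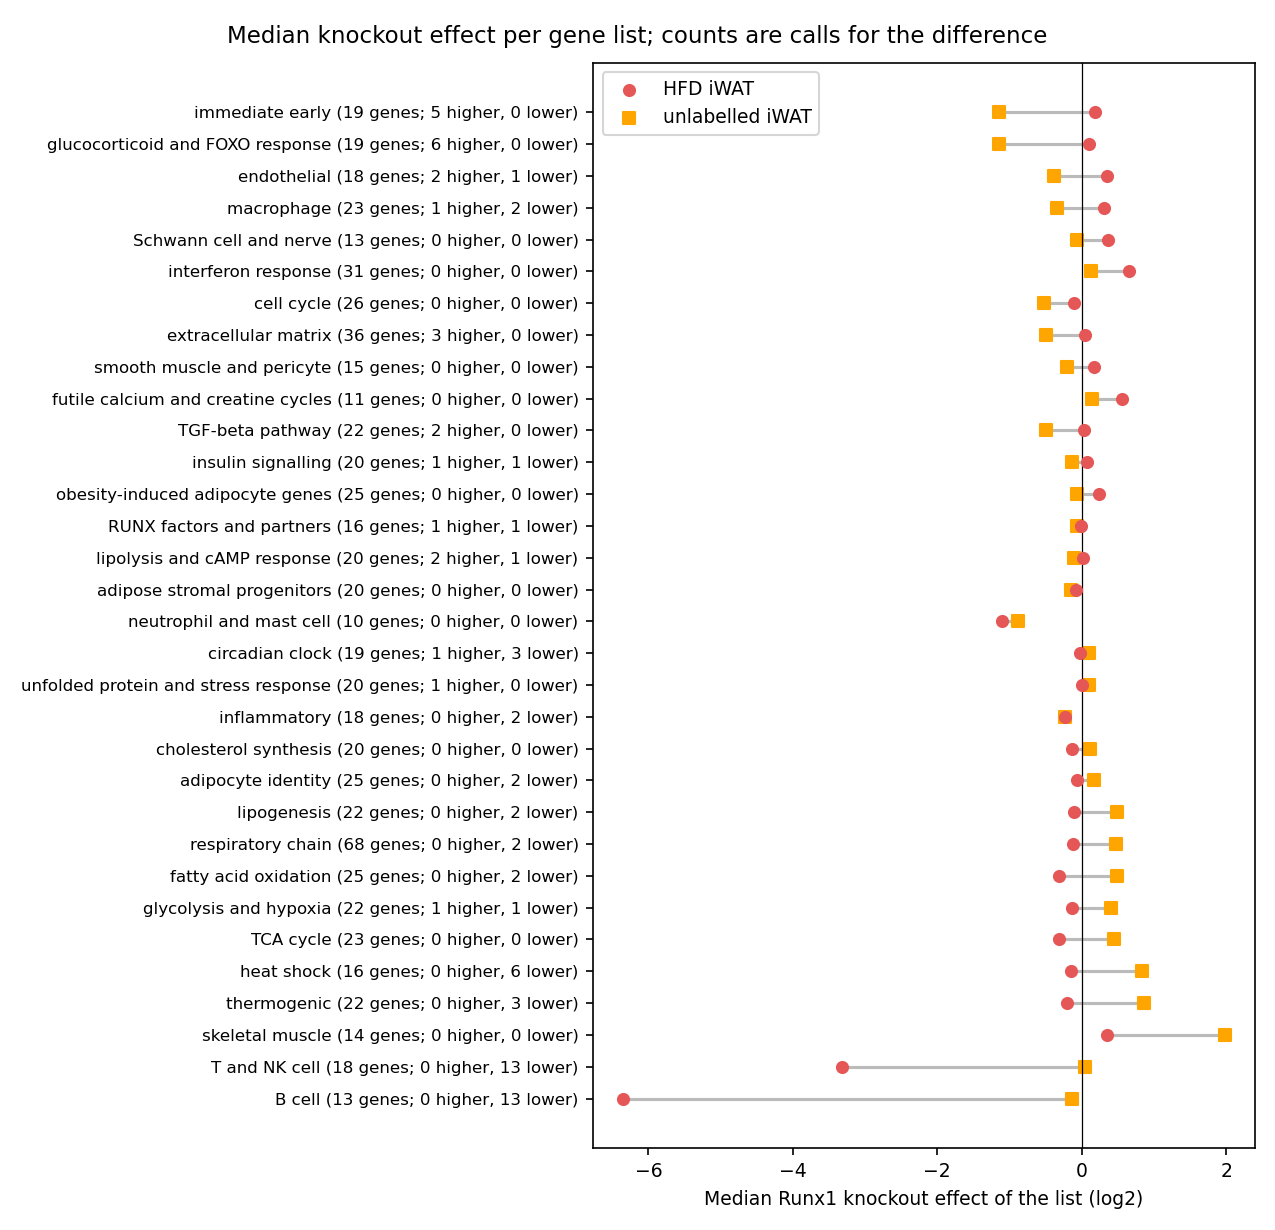
Median log2 knockout effect of each gene list with 10 or more tested genes, in HFD iWAT (circles) and unlabelled iWAT (squares), ordered by the median difference; the labels give the number of tested genes and the calls for the difference. The B cell and T and NK cell lists stand apart through the HFD effect, and the heat shock, thermogenic, immediate early and glucocorticoid lists through the unlabelled one, as does the skeletal muscle list, with no call and an unlabelled median of 1.98.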

How the data were processed

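The deposited values are counts per gene symbol, whole numbers whose totals differ between libraries, as raw counts do. The submitters' processing notes name fastp, STAR, featureCounts and the mm39 build; versions and options are not given in the sources used here. The labels name poly(A) RNA as the molecule. Even numbers made up 73.1 to 81.9% of the values between 1 and 19, so read pairs may have been counted by their 2 ends.

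The 12 libraries were grouped by their labels. Genes passing edgeR's filterByExpr in each table were kept. The difference (HFD knockout - HFD WT) - (unlabelled knockout - unlabelled control) came from 1 robust quasi-likelihood fit of the 12 libraries (edgeR 4.0.16, R 4.3.3, TMM scaling), and each single effect from its own table's 6 libraries, so the 2 effects need not subtract exactly to the difference. P-values were adjusted by Benjamini-Hochberg over 14712 genes and called below 0.05. The scripts were tested on simulated counts with 200 changed genes. For the difference, 1% of 2-fold and 62% of 4-fold changes were recovered. The shares were 36% and 84% for HFD iWAT and 28% and 80% for unlabelled iWAT. False calls were 4.55% of calls for the difference, 2.44% for HFD iWAT and 10% for unlabelled iWAT. A gene without a call for the difference may therefore still differ. CPM are TMM-scaled, and levels are compared between libraries of 1 gene, not between genes.

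The members, gene lists and naming rule were chosen with earlier results of these data known. The rule named 16 fixed genes, 8 genes each way with the most extreme called difference at a mean CPM of at least 5, up to 3 called members per list, and genes called in both tables; the text gives a part. Alternatives used DESeq2 1.42.0 scaling or testing, limma 3.58.1 voom, tables without the count filter, a block for the replicate number, fits leaving out each library, the single effects from the fit of 12 libraries, and, chosen after seeing the data, fits without 3 muscle-carrying libraries or with a B cell score as covariate. Promoter windows are RefSeq's on GRCm38.p6; 79% of the tested genes matched by symbol. Figures used Python 3.11.15 and matplotlib 3.10.9.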

Additional observations from a re-analysis of the deposited data

Results flagged for a closer look

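Each result below was picked out because the test of the difference of effects called it, so the Runx1 knockout effect differed between HFD and unlabelled iWAT. In all, 701 genes met this. The log2 difference was negative for the lymphocyte genes Cd79a (-6.72), Ms4a1 (-8.12), Fcer2a (-8.81), Cd4 (-3.40), Foxp3 (-7.43, fitted from 2 counts over the HFD knockouts), Ccr7 (-4.37), Ltb (-5.65), Cxcr6 (-3.39), Btla (-2.95) and Runx3 (-3.58). With the floor of 3 independent counts it was at or below -7.96 for Glycam1, -8.63 for Serpina10, -7.87 for Tspan10 and -6.34 for Dsg2. Timd4 (-3.54) and Prox1 (-3.90) also differed through a fall in the HFD knockout.

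Among metabolic, thermogenic and clock genes it was -3.79 for Irs3, -3.30 for Plin5, -2.78 for G0s2, -1.48 for Slc2a4, -1.42 for Gpam, -1.31 for Slc25a20, -1.36 for Ndufb6, -3.57 for Cidea, -1.76 for Ppara and -2.42 for Bhlhe41. For the heat shock genes it was -2.94 for Hsph1, -1.58 for Dnaja1 and -3.48 for Hspa1a.

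Positive differences were found for stimulus-responsive genes: Errfi1 (2.79), Per1 (1.58), Sgk1 (1.51), Irs2 (2.43), Dusp1 (2.98), Dusp8 (3.20), Apold1 (3.87), Slc25a25 (3.82) and Sik1 (3.58). Matrix and vessel genes with a positive difference were Ccn1 (3.31), Thbs1 (3.02), Inhbb (1.94), Vegfa (2.70), Kdr (1.29), Cldn5 (1.76) and Ugdh (2.36). Tle1 (1.09), Mertk (0.99), Vsig2 (1.76), Plod2 (1.64) and Gm16016 (3.99) were positive as well. The causes were not tested, and the HFD label and the count table cannot be told apart.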

How the results depend on the processing

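All 50 genes given above with a called difference kept their direction under each alternative run for genes. All 50 kept their call with DESeq2 scaling or testing, 48 with voom and 47 with no count filter. With the replicate number as a block 33 kept it and 17 lost it, among them Runx3, Tle1 and Gm16016. The 50 were named partly for a low p or an extreme difference in these data. Of all 701 calls, 655 were kept with DESeq2 scaling, 701 with the DESeq2 test and 631 with voom. With no count filter 597 were kept, and 283 with the replicate block. DESeq2 scaling gave 685 calls for the difference, voom 915 and no count filter 649. The DESeq2 test raised the calls to 1308 for the difference (505 higher, 803 lower), 521 in HFD iWAT (52 higher, 469 lower) and 2327 in unlabelled iWAT. The fit of 12 libraries gave 512 in HFD iWAT (21 higher, 491 lower) and 532 in unlabelled iWAT. With the replicate number as a block, calls were 294 for the difference, 215 in HFD iWAT and 932 in unlabelled iWAT. Same-numbered libraries correlated at -0.094, -0.136 and -0.306 in HFD iWAT and at 0.232, 0.298 and -0.174 in unlabelled iWAT. With so few libraries these values neither show nor exclude that the numbers pair samples. Without the 3 muscle-carrying libraries calls were 107 for the difference and 301 in unlabelled iWAT, on fewer libraries. With the B cell score as covariate they were 2, 0 in HFD iWAT (935 at an unadjusted p under 0.05; DESeq2 was not run with it) and 697 in unlabelled iWAT. The cause was not tested, and that score varies mostly between groups.

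With each library left out, calls ranged from 297 to 842 for the difference, 146 to 387 in HFD iWAT and 154 to 1561 in unlabelled iWAT, each lowest count but that of HFD iWAT without unlabelled knockout replicate 2. For HFD iWAT the lowest came without HFD knockout replicate 1. Counts also moved by over 1.5 times for the difference without HFD WT replicate 2 (361), HFD knockout replicate 1 (408), unlabelled control replicate 2 (460) and unlabelled knockout replicate 3 (429). The same held in HFD iWAT without WT replicate 2 (212) or 3 (197), and in unlabelled iWAT without control replicate 3 (812) or knockout replicate 1 (505) or 3 (415). Of the 50 genes, 33 were called in all 12 fits. Signs turned for genes near 0 that were never called: Cbfb at 0.0011 (DESeq2 scaling and test) and 0.16 (without muscle-carrying libraries), Adipoq at 0.065 (voom), and Fabp4 at 0.030 (DESeq2 scaling and test), 0.17 (voom) and 0.0044 (no filter). Their leave-one-out ranges were -0.074 to 0.068 for Cbfb, -0.44 to 0.23 for Adipoq and -0.29 to 0.39 for Fabp4, with -0.36 to 0.069 for Prdm16 and -0.55 to 0.091 for Pparg.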
